A study of Mus musculus with 4 samples.

Results

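The ATP-binding cassette (ABC) transporter genes are described here in MG5 cells, a mouse microglial cell line, after exposure to 6OHA. The family was taken from the deposited gene table as every symbol made of Abc, a subfamily letter from a to g, a number and at most 1 further letter. This gave 50 of 45777 genes, with 16 in subfamily A, 10 in B, 10 in C, 4 in D, 1 in E, 3 in F and 6 in G. Of the 50, 37 had enough counts to be tested, 4 had counts below the filter and 9 had 0 counts in every library.

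The 6OHA group held 2 libraries (replicates 1 and 3) from cells given 10 µM 6OHA for 6 h. The compound, given under a code name, is described as activating the retinoid X receptor (RXR). The control group held 2 libraries (replicates 1 and 2) from untreated cells, for which the labels name no solvent. All cells were labelled WT and grew in a mix of 30% serum-supplemented medium and 70% conditioned medium taken from A1 (astrocyte-like) cultures. All 4 libraries come from 1 cell line. Separate cultures are not stated for the libraries of a group, and the spread behind each p-value may therefore be only technical.

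ABC transporters use the energy of ATP to move lipids, peptides, drugs, metabolites or conjugates across membranes, except in subfamilies E and F, whose proteins act on ribosomes and carry nothing across a membrane. In macrophages and microglia the best known members are Abca1 and Abcg1, which pass cholesterol to apolipoproteins and lipoprotein particles. Both are classic targets of the liver X receptors (LXR), which bind DNA as pairs with RXR, so an RXR agonist can act through the pair. The comparison asks which of the transporters differed after 6 h.

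Total counts ran from 31057950 to 35314782 in 6OHA and from 34406649 to 42541641 in control, so that 0 counts allow a level of up to 0.0974 CPM (counts scaled to library size) in the shallowest library, for counting error only. The 12 microglia markers all had counts, 1 of them fell (Cx3cr1, at a log2 fold change of -0.81) and their sum came to 7451 to 7592 CPM in 6OHA against 7404 to 7598 CPM in control, led per length by Csf1r and Tyrobp (means of 684 and 609 FPKM over the 4 libraries). Of 8 pericyte and fibroblast markers, Col1a1 alone had counts, and it and Pdgfrb had means of 0.00863 and 0 FPKM. Of 7 endothelial markers, 5 had counts, with a sum of 216 to 217 CPM in 6OHA against 237 to 261 CPM in control. Kdr (33.7 FPKM) and Cdh5 (1.94 FPKM) led this list, while Cldn5 was at 0. Of 8 astrocyte markers, 5 had counts, with a sum of 15.1 to 16.8 CPM in 6OHA against 22.6 to 23.4 CPM in control. Aldh1l1 (4.19 FPKM) and Slc1a2 (1.07 FPKM) led it, and Gfap, Aqp4 and Sox9 were at 0. Of 7 neuron markers, 3 had counts (9.61 to 10.2 CPM in 6OHA against 15.1 to 16.4 CPM in control), led by Snap25 (1.71 FPKM) and Map2 (1.10 FPKM), with Rbfox3 at 0. Map2 fell, at a log2 fold change of -0.76 (adjusted p = 0.0273). Of 8 oligodendrocyte markers, 3 had counts (102 to 106 CPM in 6OHA against 86.1 to 87.7 CPM in control), led by Mbp (16.5 FPKM) and Mag (2.39 FPKM), with Olig1, Olig2 and Sox10 at 0. The part of these markers in the results below was not tested. In bulk libraries, fewer cells of a type and less RNA per cell cannot be told apart.

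Of the 37 tested members, Abca1, Abcg1 and Abcc3 rose in 6OHA, Abcc2 fell and 33 did not pass a Benjamini-Hochberg adjusted p under 0.05 in edgeR's quasi-likelihood test over all genes. The same threshold was passed by 2.02% of the 14634 genes tested, with 1.39% higher and 0.629% lower in 6OHA. Among members the share called was 10.8%, with Abcc2 included. Abcc2 passed the filter on low counts through its control libraries alone, so a difference was built into its selection. The median log2 fold change of the tested members was -0.01, as was that of all genes tested (-0.01), and the median size without regard to sign was 0.13 for members and 0.12 for all genes. Members with log2 fold changes above 0 numbered 18, and 19 lay below 0. An unadjusted p under 0.05 in edgeR's test was reached by 8 of the 37 tested members, including those called. These were 4 in subfamily A, 2 in C, 1 in D and 1 in G. The share of all tested genes at that level was not computed. CPM values of the groups did not overlap for 16 members, a share of 43.2% against 38.8% of all tested genes.

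**Figure D1:**
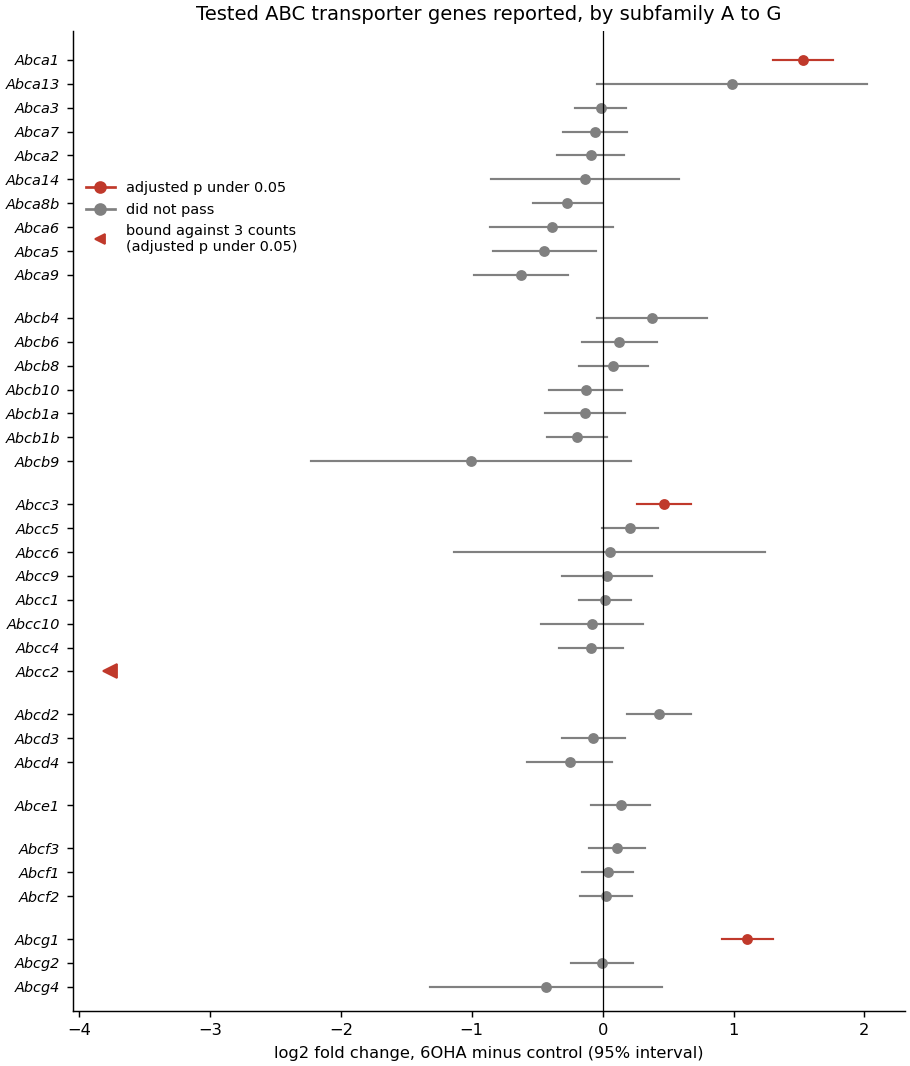
Log2 fold change of the tested ABC transporter genes reported here, 6OHA minus control, with its 95% interval, sorted within subfamilies A to G; red marks an adjusted p under 0.05 and the triangle a bound for Abcc2, which had 0 counts in 6OHA. Abca1 at 1.53, Abcg1 at 1.11 and Abcc3 at 0.47 lie to the right, and most other members lie near 0.

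Abca1 (Entrez gene 11303), which loads cholesterol and phospholipid onto apolipoprotein A-I, showed the largest rise among the members called. It lies on chromosome 4 of GRCm38 from 53030789 to 53159988. Its level was 1346 and 1370 CPM in 6OHA replicates 1 and 3, against 511 and 429 CPM in control replicates 1 and 2. Both 6OHA libraries lay above both controls, and the controls differed more from each other than the 6OHA libraries did. Abca1 was 2.89-fold higher in 6OHA, or 1.53 on the log2 scale (SE 0.10, 95% interval 1.30 to 1.76, adjusted p = 5.23e-05). It passed in all 15 other settings of the analysis, with log2 fold changes from 1.41 to 1.66. None of the distinct 31-base stretches of its transcripts occurs in transcripts of another annotated gene.

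The promoter of Abca1 is shown because LXR and RXR pairs are known to bind this gene near its start, at a direct repeat of their hexamer with a spacer of 4 bases. The sequence is that of the RefSeq annotation of GRCm38.p6 at chr4:53159896-53160145 on the minus strand, the 250 bases before the start used in the promoter table, and the capitals mark a loose match to such a repeat, described after it. That start, at 53159895, lies 93 bases inside the outer end of the gene record, so the last 93 of the printed bases, with the capitals, are also within the annotated gene.

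Abca1 promoter: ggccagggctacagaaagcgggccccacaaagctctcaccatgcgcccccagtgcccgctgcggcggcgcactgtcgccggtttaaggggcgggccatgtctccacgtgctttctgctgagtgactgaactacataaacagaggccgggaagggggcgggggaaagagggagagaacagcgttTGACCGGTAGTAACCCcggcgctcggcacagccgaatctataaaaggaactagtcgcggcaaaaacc

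Direct repeats of the hexamer AGGTCA were searched on both strands of the 250 bases before and 50 bases after each annotated start, with at most 1 mismatch in each hexamer. The patterns were DR1 (AGGTCANAGGTCA), DR4 (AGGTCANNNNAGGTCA) and DR5 (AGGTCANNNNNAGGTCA). Abca1 held none of them, while 2.40%, 1.75% and 1.64% of 32851 promoters held DR1, DR4 and DR5. After this sequence had been read, DR4 was searched again with up to 2 mismatches in a hexamer and 3 in all. The capitals are then its 1 match, at -67 to -52 from that start, which reads on the opposite strand as follows.

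Abca1 DR4-like stretch: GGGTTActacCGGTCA

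Capitals there mark the hexamers. So loose a pattern occurred in 18.8% of all promoters, and the match describes letters, not binding. The promoter table held 38 of the 50 members. Among their 45 promoters, the strict DR4 occurred in 1, that of Abcc10, the strict DR5 in 1, that of Abcg5, and DR1 in 0. Abcc10, a drug-efflux member, had a log2 fold change of -0.08 (adjusted p = 0.949), and Abcg5 had 0 counts. Abcg1, Abcc3 and Abcd2 were among the 12 members without an entry.

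Abcg1 (Entrez gene 11307), which delivers cholesterol to high density lipoprotein, was 2.15-fold higher in 6OHA. It lies on chromosome 17 from 31057694 to 31117984. It measured 449 and 485 CPM in 6OHA replicates 1 and 3, against 218 and 216 CPM in control replicates 1 and 2. The groups were well apart, and the controls nearly coincided. The log2 fold change was 1.11 (SE 0.09, 95% interval 0.91 to 1.30, adjusted p = 9.88e-05), and it ranged from 1.03 to 1.16 over 15 other settings, in each of which it passed. Of its 31-base stretches, 1.45% occur in other genes.

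The other members of subfamily G did not pass or were not tested. Abcg2, a drug and urate exporter common in vessel walls, measured 53.7 and 51.2 CPM in 6OHA against 56.3 and 49.0 CPM in control, and the groups overlapped. Its log2 fold change was -0.01, with a 95% interval from -0.24 to 0.23 (adjusted p = 0.992). Abcg4, a sterol exporter related to Abcg1, was at trace levels of 0.584 and 0.744 CPM in 6OHA against 0.722 and 1.12 CPM in control (log2 fold change -0.43, adjusted p = 0.828). Abcg5 and Abcg8, which together secrete sterols in liver and gut, had 0 counts in all 4 libraries. Abcg3, found in rodents, had 4 counts in 6OHA replicate 1 and 0 in the other libraries.

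**Figure D2:**
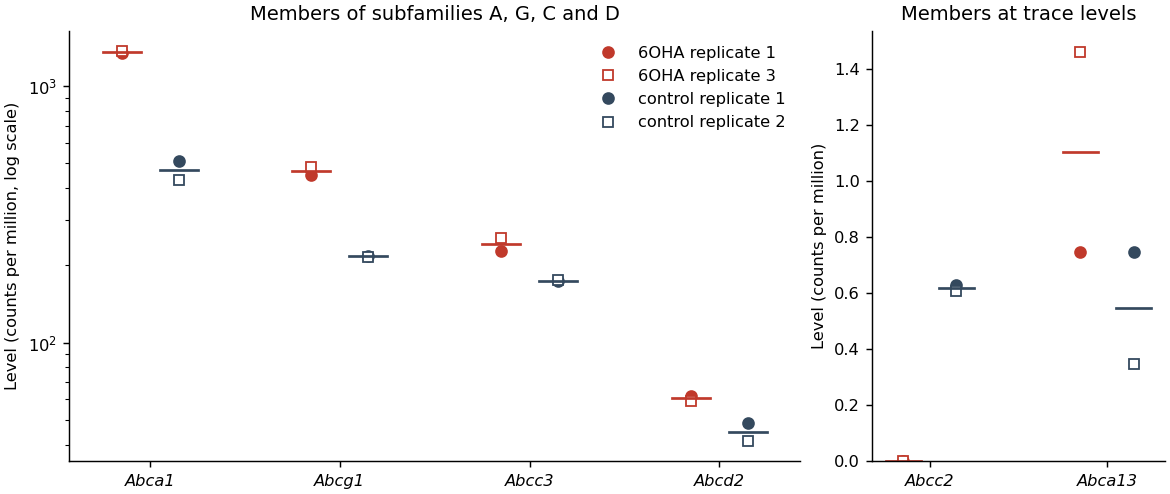
Level of 6 ABC transporter genes in CPM in each library, with bars at group means; the left panel has a log axis and the right panel, for genes at trace levels, a linear one. Abca1, Abcg1, Abcc3 and Abcd2 were higher in both 6OHA libraries than in both controls, and Abcc2 had 0 counts in 6OHA.

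Abcc3 (Entrez gene 76408), which exports glucuronides and bile acids across the basal membrane of epithelia, was 1.38-fold higher in 6OHA. It lies on chromosome 11 from 94343295 to 94393017. It measured 227 and 255 CPM in 6OHA replicates 1 and 3, against 174 and 175 CPM in control replicates 1 and 2. The groups did not overlap, and the 6OHA libraries were farther from each other than the controls. The log2 fold change was 0.47 (SE 0.09, 95% interval 0.26 to 0.67, adjusted p = 0.0288). The call was lost without 6OHA replicate 3 (adjusted p = 0.366), without control replicate 1 (0.0528), without a filter on low counts (0.151) and on FPKM or TPM values (0.107 to 0.134), while the log2 fold change stayed between 0.38 and 0.55.

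Abcc2 (Entrez gene 12780), the exporter of conjugates on the bile side of liver cells, fell and was a trace transcript in these cells. It lies on chromosome 19 from 43782308 to 43838332. It had 0 counts in both 6OHA libraries, against 27 and 21 counts in control replicates 1 and 2, or 0.629 and 0.605 CPM. Against a floor of 3 counts over the 6OHA group it was at least 13.55-fold lower in 6OHA. The adjusted p of 0.0169 in edgeR's test belongs to the fitted log2 fold change, not to this bound. Abcc2 passed the filter on low counts through its control libraries alone, so this p is no independent support for a fall. It did not pass without a filter on low counts (adjusted p = 0.0999) or on FPKM and TPM values (0.166 to 0.383). In the whole table, 5 genes had 0 counts in both 6OHA libraries and at least 20 in both controls, and 1 gene showed the reverse. Within groups, 16 and 9 genes had 0 in a 6OHA library and at least 20 in the other. Between the controls, 10 and 9 genes did so. This pattern within groups needs 0 in a single library, so it is looser than that of Abcc2.

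The rest of subfamily C did not pass. Abcc1, an exporter of glutathione conjugates and leukotriene C4, was the most abundant of these per length, at a mean of 46.7 FPKM. It measured 312 and 313 CPM in 6OHA against 322 and 294 CPM in control (log2 fold change 0.02, 95% interval -0.18 to 0.22, adjusted p = 0.975). The 6OHA libraries lay between the controls. Abcc5 and Abcc4, which export cyclic nucleotides, differed by 0.21 and -0.09 on the log2 scale (adjusted p = 0.478 for Abcc5 and 0.890 for Abcc4). Abcc9, the sulfonylurea receptor of potassium channels in pericytes and muscle, was at 7.73 and 7.33 CPM in 6OHA against 7.57 and 7.09 CPM in control, while the pericyte channel gene Kcnj8 was at 0. Abcc6, known for its link to soft tissue calcification, had 10 and 12 counts in 6OHA against 12 and 13 in control. Abcc8, the sulfonylurea receptor of pancreatic beta cells, and Abcc12 had 0 counts.

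The subfamily A genes other than Abca1 showed no call, and 8 of these 9 tested had log2 fold changes below 0, as did 51.4% of all genes tested; 4 of the 8 are neighbours on chromosome 11, described below. Abca3, a lipid transporter of lysosome-related organelles best known from lung surfactant, was the next most abundant per length after Abca1, at a mean of 22.3 FPKM. It measured 154 and 161 CPM in 6OHA against 158 and 160 CPM in control, and the groups overlapped (log2 fold change -0.01, 95% interval -0.21 to 0.18, adjusted p = 0.981). A share of 8.81% of its 31-base stretches lies in the antisense gene D330041H03Rik, and it is not stated whether counting used strand. Abca7, a phospholipid exporter and a risk gene for Alzheimer's disease, had 56.9 and 67.8 CPM in 6OHA against 63.7 and 66.3 CPM in control (log2 fold change -0.06, 95% interval -0.30 to 0.18, adjusted p = 0.941). Abca2, a lipid transporter of endosomes and lysosomes, had 69.4 and 81.2 CPM in 6OHA against 74.2 and 86.5 CPM in control (log2 fold change -0.09, adjusted p = 0.892). For both, the spread within a group exceeded the difference between groups. Abca13, a very large member, had 23 and 51 counts in 6OHA against 32 and 12 in control. Its log2 fold change of 0.99 did not pass (SE 0.47, adjusted p = 0.489) and was 0.41 to 1.69 with 1 library left out. Abca14 had 35 and 33 counts in 6OHA against 45 and 43 in control (adjusted p = 0.956). Its neighbour Abca16 on chromosome 7 had 3 counts in control replicate 2 and 0 in the other libraries. Abca17, next to Abca3 on chromosome 17, had 0 and 5 counts in 6OHA against 9 and 8 in control and was not tested. Abca4, the retinal transporter of retinoid lipids, Abca12, which loads lipids for the skin barrier, and Abca15 had 0 counts.

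Abca8b, Abca8a, Abca9, Abca6 and Abca5 lie side by side on chromosome 11, from 109932206 to 110337723. The group was singled out after its values had been seen. Abca9 measured 6.33 and 7.56 CPM in 6OHA against 11.4 and 9.91 CPM in control, at -0.62 on the log2 scale (SE 0.16, adjusted p = 0.101). Abca5, of late endosomes and lysosomes, measured 12.5 and 9.76 CPM in 6OHA against 17.2 and 12.9 CPM in control, at -0.45 (adjusted p = 0.366). Abca6 measured 4.64 and 3.32 CPM in 6OHA against 5.57 and 4.73 CPM in control, at -0.39 (adjusted p = 0.591). Abca8b measured 24.0 and 24.5 CPM in 6OHA against 31.2 and 27.1 CPM in control, at -0.27 (adjusted p = 0.438). For these 4 genes the lower control still lay above the higher 6OHA library, an order in that direction that 20.1% of all tested genes showed. None of the 4 passed as reported, and Abca9 passed once GC content was adjusted for in each library (adjusted p = 0.0281), a setting that called 5.43% of all genes. Their sign stayed negative in every setting that tested them. Abca8a had 4 counts in control replicate 2 and 0 elsewhere, and it shares 2.89% of its 31-base stretches with Abca8b.

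**Figure D3:**
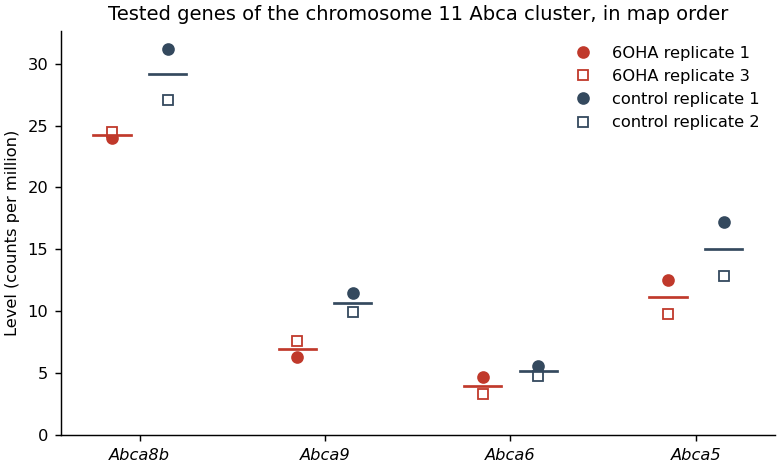
CPM of the 4 tested Abca genes that neighbour each other on chromosome 11, by library, with bars at group means. Each gene lies lower in both 6OHA libraries than in both controls, from Abca8b at 24.0 and 24.5 CPM in 6OHA against 31.2 and 27.1 CPM in control to Abca6 at 4.64 and 3.32 CPM in 6OHA against 5.57 and 4.73 CPM in control, and none passed the test.

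No gene of subfamily B passed in edgeR's test, none had an unadjusted p under 0.05, and DESeq2 and limma-voom also called 0. The multidrug P-glycoprotein gene Abcb1b measured 57.5 and 56.2 CPM in 6OHA against 69.1 and 61.0 CPM in control (log2 fold change -0.20, 95% interval -0.42 to 0.03, adjusted p = 0.560). Its close copy Abcb1a had 14.1 and 13.3 CPM in 6OHA against 16.2 and 13.7 CPM in control (log2 fold change -0.13, adjusted p = 0.857). These copies share 31-base stretches, 23.3% of those of Abcb1a and 16.0% of those of Abcb1b being found in other genes, so their split is uncertain. In addition, 9.05% of the stretches of Abcb1a and 2.83% of those of Abcb1b lie in the antisense gene Gm42686. Their neighbour Abcb4, a phosphatidylcholine exporter of bile, was at 7.50 and 5.61 CPM in 6OHA against 4.94 and 5.10 CPM in control (log2 fold change 0.38, adjusted p = 0.528). The mitochondrial members Abcb8, Abcb10 and Abcb6 had log2 fold changes of 0.08, -0.13 and 0.13 (adjusted p = 0.918, 0.846 and 0.857). Of Abcb10, 9.12% lies in the antisense gene Gm45890. Abcb6 shares 52.1% of its 31-base stretches with the annotated gene Gm29253 and is uncertain. Abcb9, a peptide transporter of lysosomes, had 17 and 13 counts in 6OHA against 22 and 49 in control. Its log2 fold change of -1.01 was -0.17 without control replicate 2 and did not pass (adjusted p = 0.593). The bile salt exporter gene Abcb11 and Abcb5 had 0 counts.

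The 4 genes of subfamily D were all tested, and none passed in edgeR's test, while 1 had an unadjusted p under 0.05 and was called by DESeq2, with 0 called by limma-voom. Abcd2, which brings very long chain fatty acids into peroxisomes, came closest. It measured 61.9 and 59.3 CPM in 6OHA against 48.7 and 41.2 CPM in control, without overlap, at 0.43 on the log2 scale (SE 0.11, 95% interval 0.18 to 0.68, adjusted p = 0.0940). It passed in 3 of 15 other settings. These were the DESeq2 test (adjusted p = 0.0256), GC content adjusted for (0.00191) and control replicate 1 left out. The DESeq2 test and the GC setting called 430 and 795 genes in the whole table, against 295 as reported. With 1 library left out, the log2 fold change of Abcd2 ranged from 0.32 to 0.56. Abcd3, the major peroxisomal membrane transporter for branched fatty acids, measured 38.9 and 41.2 CPM in 6OHA against 44.7 and 39.5 CPM in control (log2 fold change -0.07, adjusted p = 0.923). The groups overlapped. Abcd4, which helps vitamin B12 leave lysosomes, had a log2 fold change of -0.25 (adjusted p = 0.628).

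None of the 4 ribosome-associated members passed in edgeR's test, none had an unadjusted p under 0.05, and DESeq2 and limma-voom called 0. Abce1, which splits ribosomes after translation ends, was the most abundant member per length in control. It measured 298 and 273 CPM in 6OHA against 280 and 239 CPM in control (log2 fold change 0.14, 95% interval -0.09 to 0.36, adjusted p = 0.762). Abcf2 measured 149 and 156 CPM in 6OHA against 147 and 152 CPM in control (log2 fold change 0.03, adjusted p = 0.967). Of the 31-base stretches, 5.59% of those of Abce1 and 8.94% of those of Abcf2 occur in other genes. Abcf1, which acts in translation initiation, measured 155 and 156 CPM in 6OHA against 147 and 156 CPM in control (log2 fold change 0.04, adjusted p = 0.956). Abcf3 had a log2 fold change of 0.11 (adjusted p = 0.810). The 95% intervals of the 3 subfamily F genes lay between -0.17 and 0.32. Over all 33 members that did not pass, 21 had a 95% interval inside -0.5 to 0.5.

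Per length, on the deposited FPKM scale, the order of the members differed between groups. In 6OHA, Abca1 stood first at 116.5 ± 0.934 FPKM (SD, n = 2), followed by Abcg1 at 70.5 ± 3.49 and Abce1 at 65.9 ± 4.38 FPKM. In control, Abce1 stood first at 62.2 ± 7.73 FPKM, followed by Abcf2 at 50.6 ± 0.354, Abcc1 at 47.3 ± 3.68, Abcf1 at 44.0 ± 1.32, Abca1 at 41.9 ± 5.79 and Abcg1 at 34.0 ± 0.764 FPKM. In 6OHA, Abcg1 and Abce1 differed by less than the sum of their SDs. In control, the same held between Abcf2 and Abcc1, between Abcc1 and Abcf1, and between Abcf1 and Abca1. A mean of at least 1 FPKM over the 4 libraries was reached by 29 members and of at least 10 FPKM by 16.

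Summed over the 50 members, the deposited TPM were 1498 and 1534 in 6OHA against 1249 and 1149 in control. Without Abca1 and Abcg1 the sums were 1055 and 1071 TPM in 6OHA against 1058 and 982 TPM in control, so that the groups overlapped. Abca1 and Abcg1 made up 29.6% and 30.2% of the family's TPM in 6OHA against 15.3% and 14.5% in control. By subfamily, A summed to 381 and 396 TPM in 6OHA against 225 and 200.0 TPM in control, and G to 210.5 and 221.5 TPM in 6OHA against 131.5 and 120.5 TPM in control. Subfamily C reached 266 and 276 TPM in 6OHA against 252 and 230 TPM in control. The sums of B, D, E and F overlapped between the groups, as for F at 259.5 and 269 TPM in 6OHA against 259.6 and 262 TPM in control.

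**Figure D4:**
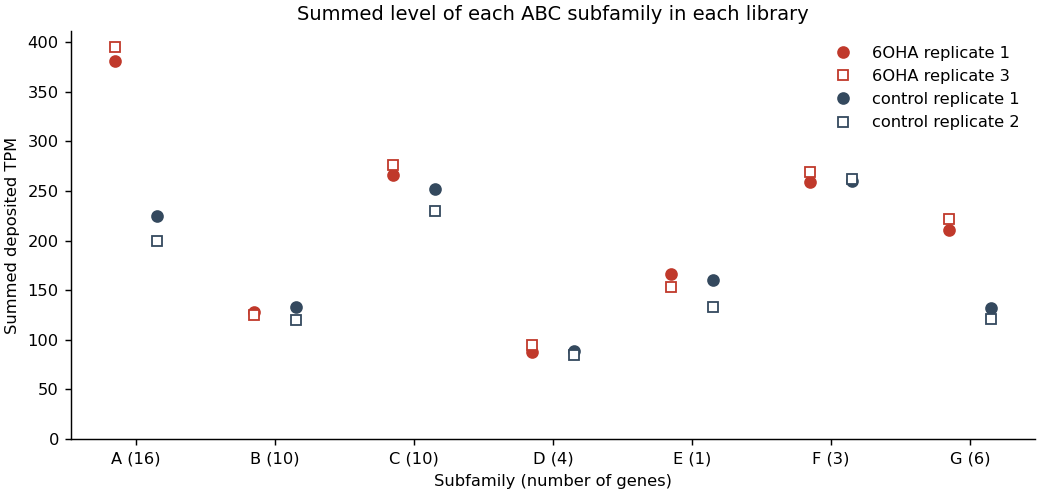
Deposited TPM summed over the genes of each ABC subfamily, one point per library, with the number of genes in brackets. Subfamilies A and G lie higher in 6OHA (381 and 396, and 210.5 and 221.5 TPM) than in control (225 and 200.0, and 131.5 and 120.5 TPM), while B stays between 119.8 and 132.6 TPM in all libraries.

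Genes that work with the transporters were listed by pathway, and 6 of the tested ones passed, 5 of them in the cholesterol list. Of all 14634 genes tested, 2.02% passed, and the lists were chosen with earlier results of these data known. Of 22 tested partners in cholesterol and oxysterol export, 4 rose, 1 fell and 17 did not pass, with a median log2 fold change of 0.11. Gramd1b, which moves cholesterol from the plasma membrane to the endoplasmic reticulum, was 1.82-fold higher, at 414 and 420 CPM in 6OHA against 231 and 227 CPM in control (adjusted p = 0.000369). Lpcat3, a phospholipid-remodelling enzyme, rose by 0.94 on the log2 scale, Mylip, which sends lipoprotein receptors for degradation, by 0.61, and the lysosomal lipase gene Lipa by 0.52. Apoe, at 0.18 (adjusted p = 0.734), and Srebf1, at 0.38 (adjusted p = 0.350), were among the 17 that did not pass. Ch25h, which makes an oxysterol, fell to 90.6 and 99.1 CPM in 6OHA, against 172 and 203 CPM in control (log2 fold change -0.98, adjusted p = 0.000635). The receptor genes themselves did not pass, with log2 fold changes of -0.13 for Nr1h2 (LXR beta), 0.56 for Nr1h3 (LXR alpha, under 1 CPM in each library), -0.11 for Rxra and 0.04 for Rxrb. The call of Lipa was lost without 6OHA replicate 1 (adjusted p = 0.0872), and those of Lipa and Mylip without a filter on low counts (0.0561 and 0.0726) and on FPKM values (0.0612 to 0.102 over both genes). Mylip also lost its call on log2(TPM + 1) values (0.0744). The call of Slco2b1, described next, was lost on log2(FPKM + 1) values (0.0522).

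The other partner lists held 1 called gene. Of 17 tested partners in glutathione and conjugate export, the uptake transporter gene Slco2b1 rose by 0.81 and 16 did not pass (median 0.03). Of 19 peroxisomal fatty acid genes (median -0.03), 22 genes of mitochondrial heme and iron-sulfur synthesis (0.03), 17 of peptide loading (-0.04) and 20 of ribosome recycling and initiation (0.03), none passed in edgeR's test, and DESeq2 and limma-voom called 0. The smallest adjusted p values of these lists were 0.292, 0.211, 0.511 and 0.537, and 2, 3, 0 and 0 of their genes had an unadjusted p under 0.05. Tap1 and Tap2, ABC transporters of antigenic peptides whose symbols lie outside the rule, measured 84.1 and 96.9 CPM in 6OHA against 97.7 and 106 CPM in control, and 54.1 and 65.9 CPM in 6OHA against 64.8 and 77.9 CPM in control (adjusted p = 0.654 and 0.539).

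**Figure D5:**
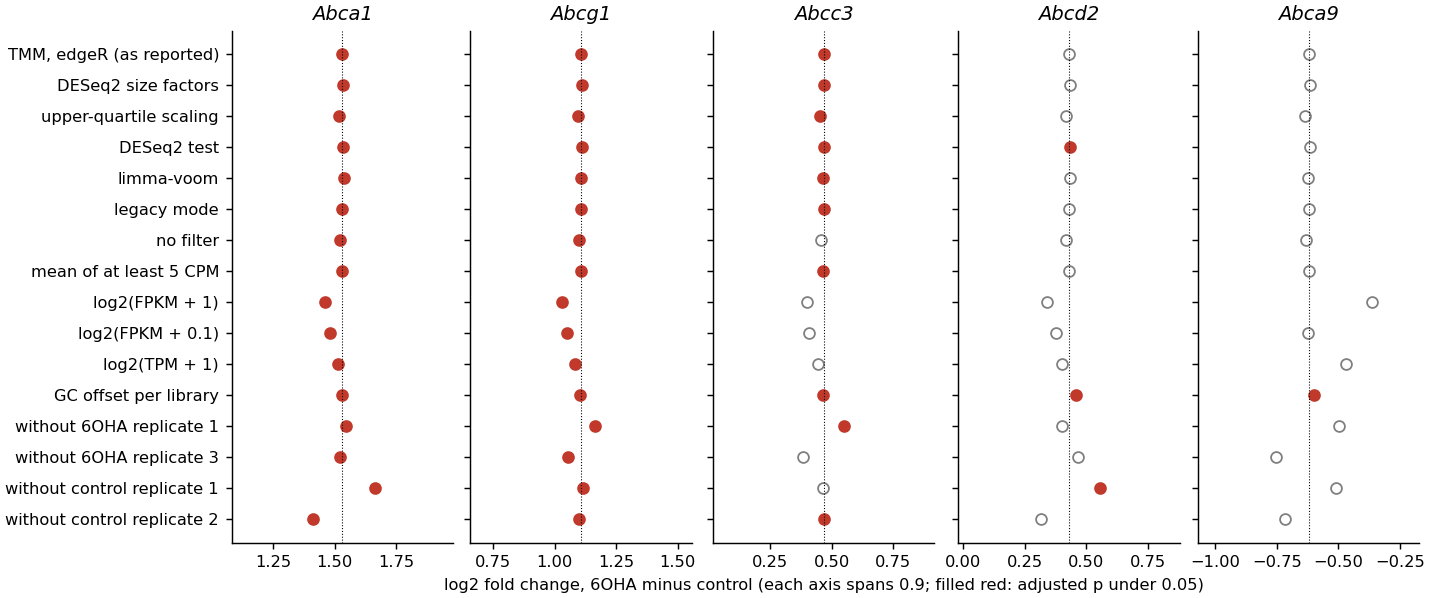
Log2 fold change, 6OHA minus control, of 5 ABC transporter genes under each setting of the analysis; filled red points had an adjusted p under 0.05 and open points did not. Abca1 and Abcg1 passed throughout, Abcc3 lost its call in 6 settings, Abcd2 passed in 3 and Abca9 in 1.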

How the data were processed

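Poly-A RNA of 4 libraries had been sequenced after isolation with RNAiso Plus and a stranded kit, per the labels. The values were read counts per gene, as deposited, with FPKM (per transcript length and library size) and TPM (shares of a fixed sum) computed by the authors, per the file headers. The submitters' processing notes name StringTie 2.1.3b, HISAT2 2.1.0, Bowtie2, Trimmomatic 0.38, SAMtools 1.9, bcl2fastq 2.20.0 and the mm10 build, without roles; counting and use of strand are not given in the sources used here.

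Of the genes, 14634 passed the filterByExpr function (edgeR 4.0.16); they were scaled by TMM and tested by its quasi-likelihood test (legacy mode off, group as the only term), with Benjamini-Hochberg adjustment over all genes and a threshold of 0.05. CPM use TMM-scaled libraries; intervals are 95%, from the fold change, its SE and the test's degrees of freedom. Alternatives used DESeq2 1.42.0, limma 3.58.1, other filters and units, a GC offset per library (a spline over transcript GC content, known for 93.4% of tested genes) and each library left out; the lone library of a group was then assumed to vary like the other group. Stretches of 31 bases were compared over the transcripts of GENCODE M21; positions and promoters are from RefSeq GRCm38.p6. In 10 simulated data sets of 14634 genes for this comparison changes of 4-fold were found in 97.4% of cases, those of 2-fold in 87.2% and those of 1.5-fold in 52.2%, and 3.61% of calls were false. The simulated counts used the fitted means and dispersion, scaled by an average over genes of the test's gene-wise spread. Differences between genes in that spread, and the GC trends of the real libraries, were left out. These shares therefore describe the model and may differ for the real libraries. R 4.3.3, Python 3.11.15, pandas 2.3.3, numpy 2.4.6 and matplotlib 3.10.9 were used. Replicate libraries were not copies of each other (chi-square per degree of freedom 10.6 in 6OHA and 22.9 in control).

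The members, lists and tests were chosen with earlier results of these data known. Named members are those called, the 2 with the highest FPKM of each subfamily, those called in any alternative and those with a log2 fold change of at least 0.5 in size; others are given to account for the family. The values of 2 tested members, neither of them called, are not reported here, and counts and sums over the family include them. Named partner genes are at most 4 called per list, besides Mylip, Apoe, Srebf1 and the receptor genes, which were added after their values were seen.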

Additional observations from a re-analysis of the deposited data

How the results depend on the processing

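Against the 15 other settings, Abca1 and Abcg1 stayed called and higher in 6OHA, and the number of members called higher stayed between 2 and 4. The 1 member called lower, Abcc2, became 0 without a filter on low counts, with a mean of at least 5 CPM, on log2(FPKM + 1), log2(FPKM + 0.1) and log2(TPM + 1) values and at an adjusted p under 0.01, and it became 2 with a GC offset per library. With a mean of at least 5 CPM, Abcc2 was too low to be tested. On the FPKM and TPM scales, the constant added to each value held its log2 fold change between -1.01 and -0.14. The 295 genes called in the whole table became 120 without a filter, 135, 149 and 152 on those FPKM and TPM scales, 149 at an adjusted p under 0.01 and 795 with the GC offset, and 266 to 397 with 1 library left out. Partner genes called, 6 as reported, became 3 on log2(FPKM + 1) and 12 with the GC offset. The slope of log2 counts on GC content per 10 percentage points was -0.07 and 0.07 in the 6OHA libraries and -0.11 and 0.12 in the controls, so libraries of a group differed in it; the cause of these changes in count was not tested. The median log2 fold change of the members, -0.0073 as reported, was -0.0238 without a filter, 0.0234 at 5 CPM, -0.0305 and -0.031 on the FPKM scales, 0.0138 with the GC offset and -0.0091 to 0.0224 with 1 library left out.

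The sign turned for 6 named members near 0, none of them called. On the FPKM scales, log2 fold changes were -0.0302 and -0.0308 for Abcc1, -0.0158 and -0.0161 for Abcf1, and -0.0305 and -0.031 for Abcf2, and the GC offset gave 0.0214 for Abcg2. With 1 library left out they ranged from -0.0452 to 0.0888 for Abcc1, -0.0072 to 0.0827 for Abcf1, -0.0023 to 0.0621 for Abcf2, -0.1019 to 0.0966 for Abcg2, -0.0452 to 0.0208 for Abca3 and -0.1574 to 0.0215 for Abcd3.

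No paired analysis was possible because the 6OHA libraries carry replicate numbers 1 and 3 and the controls 1 and 2, so that they share fewer than 2 numbers. Depth limits the calls on Abcc2, Abcg4, Abcb9, Abca13, Abca14 and Abcc6, none of which had more than 51 counts in a library.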
